A study of Mus musculus with 4 samples.

Results

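The ATP-binding cassette (ABC) transporter genes were followed in RNA-seq profiles of myeloid cells from mouse skin tumours. They were chosen by name, as every gene whose symbol is Abc followed by a letter from a to g and a number, with a normalised read count of at least 10 in 2 or more of the 4 libraries. Of 50 such genes 34 passed, among 12463 genes of all kinds that passed the same cut. The cells were positive for the integrin CD11b and for CD200R1, which binds CD200, and were sorted from cutaneous squamous cell carcinomas (cSCC) grown orthotopically in FVB/N mice. The EpiKO group (genotype K14Cre;CD200fl/fl, 2 libraries) came from tumours whose epidermal cells had lost Cd200 to Cre driven by the keratin 14 promoter. The WT group (wild type, 2 libraries) came from tumours whose epithelium kept CD200. K14Cre is driven in epidermal cells, whereas the sorted population is myeloid by its gate, although some epithelial transcripts were present, as given below. The labels give no age, and do not say whether the 2 libraries of a group came from separate mice or from pools, so p-values measure only the spread between these libraries, which may be technical. The design asks which genes of CD200R1 positive cells depend on CD200 of the tumour.

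ABC transporters use the energy of ATP to move lipids, peptides, drugs, conjugates and cofactors across membranes, and most are built from membrane-spanning helices and nucleotide-binding domains. In macrophages the best known are Abca1 and Abcg1, which export cholesterol and phospholipid to lipoproteins. Members of the E and F subfamilies have nucleotide-binding domains but no membrane part, and work on ribosomes. Abcb4 encodes the phosphatidylcholine floppase that is best known from the bile canaliculus of the liver, where it brings phospholipid into bile.

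The libraries held between 15884132 and 21244158 assigned reads, and 1 read was worth between 0.841 and 1.16 of the normalised count. Over all tested genes, 118 were called at an adjusted p under 0.05 (limma with Benjamini-Hochberg adjustment), which is 0.947%. The 10 macrophage markers summed to 310965 and 406122 in EpiKO libraries and to 373719 and 320707 in WT libraries. Of the 10, 4 (Mrc1, Fcgr1, Itgam and Mertk) were higher and 0 lower in both EpiKO libraries than in either WT library. Mrc1 had 61387 and 67477 in EpiKO and 44319 and 37127 in WT. A list of 12 keratinocyte markers summed to 5526 in WT replicate 1, against 92.6 and 58.6 in the EpiKO libraries and 123 in WT replicate 2. That library stands apart in this respect, and the values without it are given where a result rests on it. Of the 12 keratinocyte markers, 5 were lower and 0 higher in both EpiKO libraries than in either WT library. Among the lower, Sfn had 6.46 and 2.84 in EpiKO and 180 and 40.3 in WT. Simple-epithelium markers (8 genes, with Cldn7 at 0 everywhere) summed to 7154 and 5936 in EpiKO and to 1292 and 649.8 in WT. Of these, 4 were higher and 2 lower in both EpiKO libraries than in either WT library. Among the higher, Cdh1 had 4437 and 685 in EpiKO and 547 and 361 in WT. Among the lower, Krt7 had 1.08 and 0.945 in EpiKO and 11.6 and 15.1 in WT. The sum of the 9 fibroblast markers overlapped between the groups, at 21340.2 and 38084 in EpiKO and 43636 and 30063 in WT. Of the 9, 2 (Pdgfra and Pdgfrb) were higher and 1 (Col3a1) lower in both EpiKO libraries than in either WT library.

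Abcb4 fell 7.64-fold in EpiKO cells and was the 1 member of the family that passed the test. It had normalised read counts of 68.9 and 96.4 in the EpiKO libraries, against 592 and 669.9 in the WT libraries. Both EpiKO libraries lay far below both WT libraries, and the gap between the groups was many times the gap within either. Its mean was 82.6 ± 19.4 in EpiKO and 631 ± 54.9 in WT (SD, n = 2 each), which is -2.93 in log2 terms (SE 0.216, 95% interval -3.48 to -2.39) at an adjusted p of 0.0329 by limma. All log2 fold changes here are of the normalised count plus 1, which understates the change of low genes. Among all tested genes ordered by log2 fold change, Abcb4 stood 64th from the lowest. The adjusted p was 0.0297 by edgeR and 1.01e-22 by DESeq2 on the recovered reads. With each library dropped in turn the log2 fold change stayed within -3.17 to -2.70, with an adjusted p by limma between 0.0566 and 0.184, so the call needed all 4 libraries. Without WT replicate 1, the library with the most keratinocyte transcripts, the log2 fold change was -3.02. In these bulk samples fewer cells that express a gene and less RNA per cell cannot be told apart. The 10 endothelial and pericyte markers summed to 981 and 954 in EpiKO against 4107 and 6610 in WT, a gap that came from Cspg4 alone. Without Cspg4 they summed to 289.6 and 318 in EpiKO and 289 and 212 in WT, and of the other 5 tested Flt1, Pecam1 and Cdh5 were higher and Kdr lower in both EpiKO libraries than in either WT library. The 9 dendritic cell markers summed to 133 and 191 in EpiKO against 1593 and 755 in WT. Without Cd207 they summed to 109.8 and 167 in EpiKO and 392 and 165 in WT. Of the 9, 4 were lower, among them Cd207, Ccr7 and Flt3, and 0 higher in both EpiKO libraries than in either WT library. Cd207 had 23.7 and 23.6 in EpiKO and 1201 and 590 in WT, at an adjusted p of 0.0329 by limma. The part of other cells in the Abcb4 difference was not tested.

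**Figure D1:**
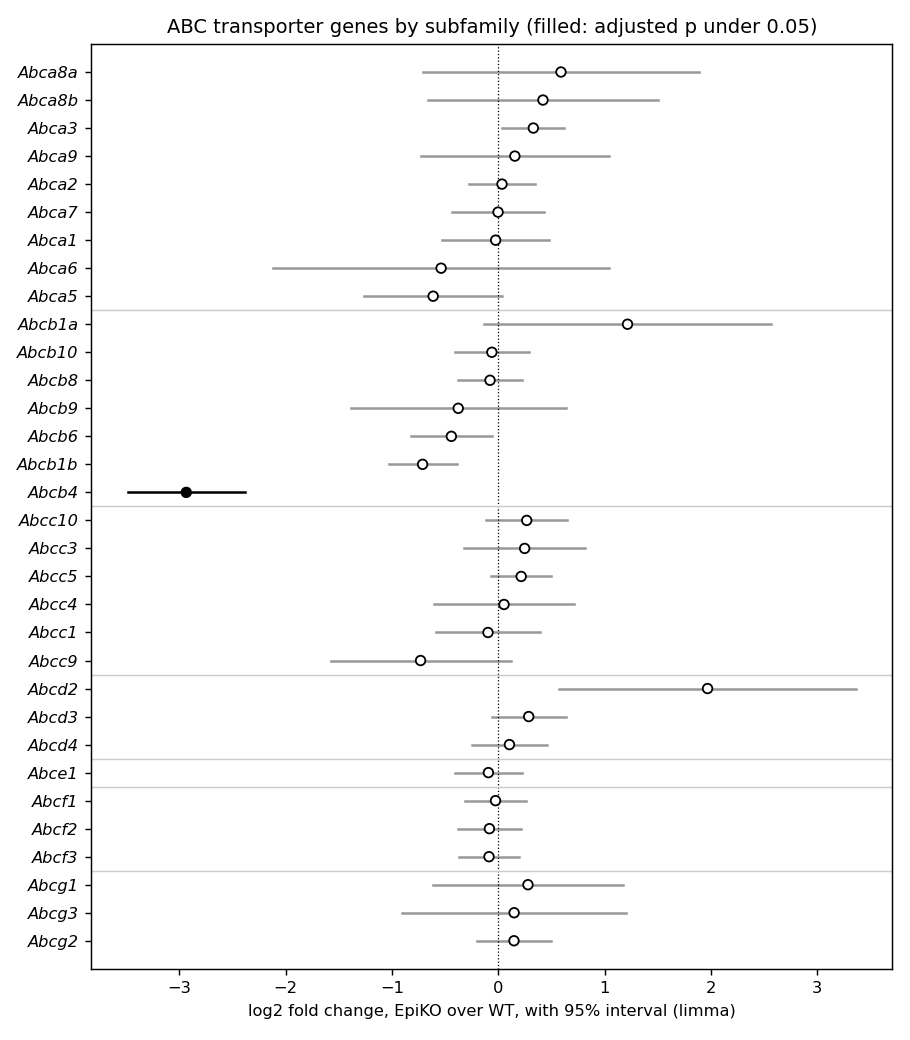
log2 fold change of 32 ABC transporter genes, EpiKO over WT, with its 95% interval from limma, grouped by subfamily from A at the top to G. Filled points have an adjusted p under 0.05. Abcb4 lies alone at -2.93, while 20 of the 32 genes drawn lie within 0.3 of 0.

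Abcb4 occupies bases 8893717 to 8959231 of chromosome 5 (mm10, plus strand, GENCODE M21), and its exons overlap no other annotated gene. Directly upstream on the same strand lie Abcb1b, from 8798147 to 8866315, and Abcb1a, from 8660077 to 8748575. Both encode P-glycoprotein, the drug efflux pump, which mice carry in duplicate. The 3 genes are close relatives, and a read from a stretch that they share could be counted for the wrong one. Over transcript words of 50 bases, 1.36% of those of Abcb4 also occurred in Abcb1a and 0.704% in Abcb1b, whereas Abcb1a shared 16.3% of its words with Abcb1b. The longest coding stretch that Abcb4 has in common with Abcb1a is 110 bases, at coding bases 3139 to 3248 of both. It is shown with its counterpart in Abcb1b at coding bases 3145 to 3254, because reads that lie within it cannot separate Abcb4 from Abcb1a, while capitals mark the 3 bases at which Abcb1b differs from Abcb4.
Abcb4: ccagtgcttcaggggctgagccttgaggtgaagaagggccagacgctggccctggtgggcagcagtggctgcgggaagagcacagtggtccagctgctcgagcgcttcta
Abcb1a: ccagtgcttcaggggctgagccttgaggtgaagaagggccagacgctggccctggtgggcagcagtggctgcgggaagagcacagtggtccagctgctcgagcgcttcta
Abcb1b: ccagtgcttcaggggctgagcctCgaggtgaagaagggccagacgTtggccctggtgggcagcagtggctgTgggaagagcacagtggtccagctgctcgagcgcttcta

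Abcb1b, the more abundant P-glycoprotein gene here, had 550.1 and 639.8 in EpiKO libraries, against 942 and 1004 in WT libraries. Both EpiKO libraries were lower, but its log2 fold change of -0.71 (SE 0.126) did not pass, with an adjusted p of 0.0817 by limma. DESeq2 called it, at an adjusted p of 0.00623. Abcb1a went the other way at low counts, with 51.7 and 39.7 in EpiKO and 30.1 and 11.8 in WT, which is 1.22 in log2 terms (SE 0.533) at an adjusted p of 0.366 by limma. Without WT replicate 2 it was 0.57, and without WT replicate 1 it was 1.86. Because Abcb1a shares so many words with Abcb1b, its low value is uncertain. Exons of both Abcb1a and Abcb1b overlap a gene annotated on the opposite strand. The same holds for Abca3, Abca8b, Abcb9, Abcb10, Abcc9 and Abcc10, so for 8 members in all. No source used here says whether counting used strand.

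Within each library the make-up of these neighbouring genes can be compared free of scaling between libraries. Per kb of exon, Abcb4 made up 8.58% and 10.5% of the summed level of the 3 genes in EpiKO libraries, against 33.8% and 35.9% in WT libraries. Abcb1b made up 80.4% and 82.1% in EpiKO and 63.2% and 63.1% in WT. The ratio of Abcb4 to Abcb1b per kb was 0.107 and 0.128 in EpiKO and 0.535 and 0.568 in WT, so the groups did not overlap and Abcb4 was lower relative to its neighbour as well. With 2 libraries a group, the smallest p that exact permutation allows is 1 in 3, so none is given.

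**Figure D2:**
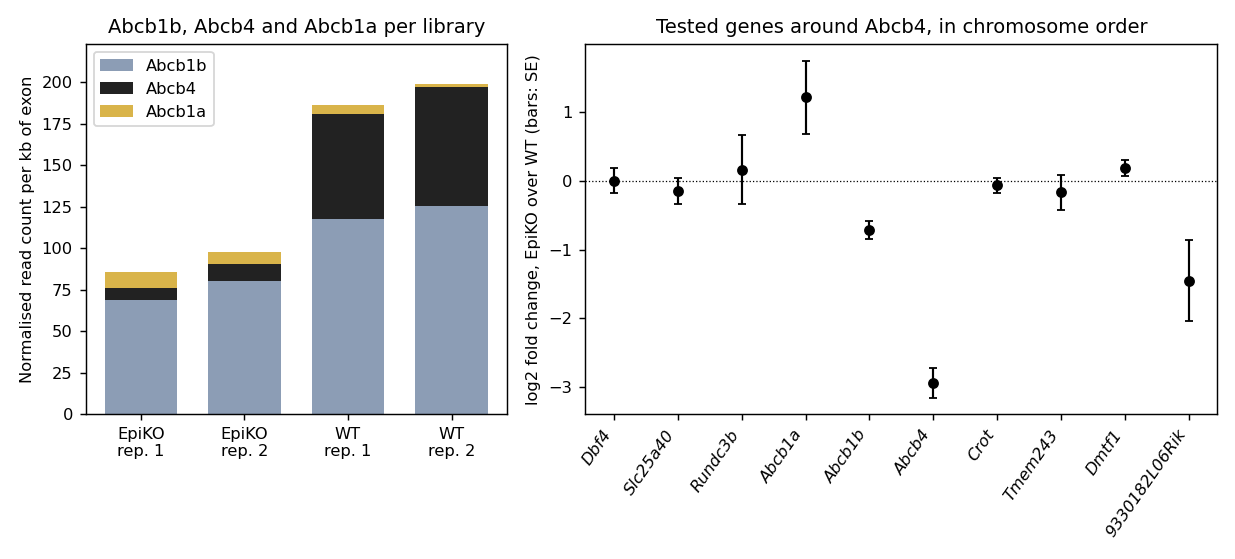
Left, normalised read count per kb of exon of Abcb1b, Abcb4 and Abcb1a stacked for each library. The black part, Abcb4, is 10.5% or less of the bar in EpiKO and 33.8% or more in WT. Right, log2 fold change (EpiKO over WT, bars are limma standard errors) of the 10 tested genes around Abcb4 in chromosome order, where Abcb4 is lowest at -2.93.

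Of the genes annotated within 500 kb of Abcb4, 10 were tested, Abcb4 included, and no other was called. Crot, the peroxisomal carnitine octanoyltransferase gene on the other strand, whose nearest end lies 6.8 kb away, had 541 and 541 in EpiKO libraries and 581 and 552 in WT libraries. Its log2 fold change was -0.066 (SE 0.111), with both EpiKO libraries lower by a small margin. On the far side of Abcb1a, Rundc3b was rare, at 16.1 and 16.1 in EpiKO and 10.4 and 19.3 in WT (log2 fold change 0.17, SE 0.501). The mitochondrial carrier gene Slc25a40 had 147 and 131 in EpiKO and 155 and 153 in WT (log2 fold change -0.15, SE 0.183). Dbf4, which encodes the activator of a replication kinase, had 716 and 581 in EpiKO and 563 and 734 in WT (log2 fold change 0.0047, SE 0.184), so its groups overlapped. Beyond Crot, Tmem243 also overlapped, at 519.97 and 742 in EpiKO and 833 and 584 in WT (log2 fold change -0.17, SE 0.253). The transcription factor gene Dmtf1 had 669.6 and 717 in EpiKO and 588 and 628 in WT (log2 fold change 0.19, SE 0.114). The low gene 9330182L06Rik, at 16.1 and 6.62 in EpiKO and 23.2 and 39.5 in WT, had a log2 fold change of -1.45 (SE 0.590).

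The 250 bases before the RefSeq start (GRCm38.p6) are shown for Abcb4 and Abcb1b, the neighbours with the smallest p-values of the family. Both lie on the plus strand, Abcb4 at chr5:8893471-8893720 and Abcb1b at chr5:8797897-8798146. Capitals mark matches, on either strand, to any of 8 short motifs. For factors of immune cells these were the AP-1 site TGANTCA, the PU.1 core motif GAGGAA, the NFAT core motif TGGAAA and the STAT site TTCNNNGAA. For general promoter elements they were the E-box palindrome CACGTG, the TATA box written TATAAA, the GC box written GGGCGG, and the CCAAT box by its own letters. None of these letters overlaps another in the sequences shown.
Abcb4: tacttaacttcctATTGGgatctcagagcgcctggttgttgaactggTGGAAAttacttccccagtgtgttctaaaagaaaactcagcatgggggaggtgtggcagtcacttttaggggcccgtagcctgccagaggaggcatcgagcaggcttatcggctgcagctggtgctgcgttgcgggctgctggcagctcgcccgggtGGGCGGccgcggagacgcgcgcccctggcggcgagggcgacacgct
Abcb1b: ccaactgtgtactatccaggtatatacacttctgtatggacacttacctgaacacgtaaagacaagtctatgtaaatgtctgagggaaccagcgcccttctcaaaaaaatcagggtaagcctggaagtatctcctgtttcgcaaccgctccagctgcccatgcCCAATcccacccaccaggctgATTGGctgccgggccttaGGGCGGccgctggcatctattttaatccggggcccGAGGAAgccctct

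The Abcb4 window held a reversed CCAAT box, an NFAT core and a GC box that starts 46 bases before the start. The Abcb1b window held 2 CCAAT boxes in opposite directions, a GC box that starts 48 bases before the start, and a PU.1 core. Among 32841 windows of the same length, 33.9% held a CCAAT box, 32.7% a GC box, 18.6% an NFAT core and 23.3% a PU.1 core, so all of these are common. Matches to letters are a description and show no binding. RefSeq promoter entries were matched for 25 of the 34 genes.

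Across the family, 1 of 34 genes was called (2.94%), against 0.947% of all tested genes. It was lower in EpiKO, as were 0.53% of all tested genes, while 0.417% were higher. By edgeR 1 member was called, Abcb4, against 0.842% of all tested genes in either direction and 0.457% lower. By DESeq2 3 were called, with Abcb4 and Abcb1b lower (3.12% of all tested genes) and Abcd2 higher (3.73%). At an unadjusted p under 0.05 there were 5, with 3 lower (Abcb4, Abcb1b and Abcb6) and 2 higher (Abcd2 and Abca3), or 14.7% against 15.6% of all tested genes (7.57% lower and 8.07% higher). The groups did not overlap for 16 of the 34, 9 higher and 7 lower, which is 47.1%, beside 47.1% of all tested genes (23.3% higher and 23.8% lower). The median log2 fold change was -0.014, beside -0.0020 over all tested genes, and the median size of the change without its sign was 0.185 beside 0.184. These shares lie near those of all tested genes, apart from the single call. No member needed its higher group alone to pass the cut on low values.

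**Figure D3:**
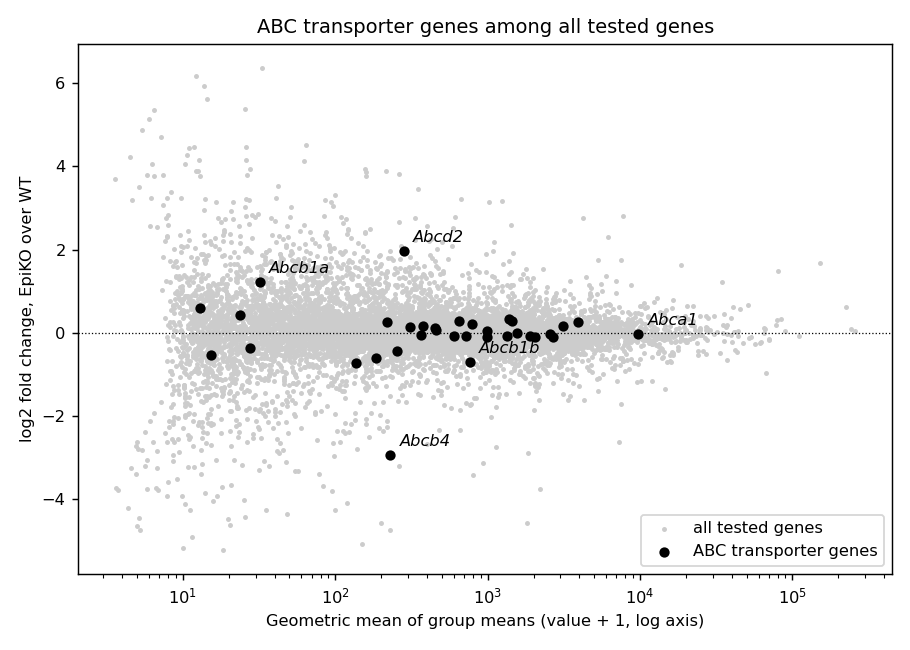
log2 fold change (EpiKO over WT) against the geometric mean of the group means for all 12463 tested genes in grey and the 34 ABC transporter genes in black. Most black points lie along 0, with Abcb4 at -2.93 and Abcd2 at 1.97 apart from them.

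Levels are compared between genes only per kb of exon. Abca1 was the most abundant member, at 845 and 1013 per kb in EpiKO and 1105 and 802 per kb in WT. Abcc3, an exporter of glucuronides and other conjugates, followed at 615 and 903 per kb in EpiKO and 691 and 570.3 per kb in WT. Abcf1, Abcf2, Abce1 and Abca9 were also high, in that order of group means in EpiKO and in WT, although Abce1 and Abca9 lay within their spread. Abcb4 ranked 29th of 34 per kb in EpiKO and 22nd in WT. Abcd2 ranked 18th in EpiKO and 27th in WT. The summed level of all 34 genes was 6128 and 6368 per kb in EpiKO and 6336 and 5993 per kb in WT, so the total overlapped between the groups.

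**Figure D4:**
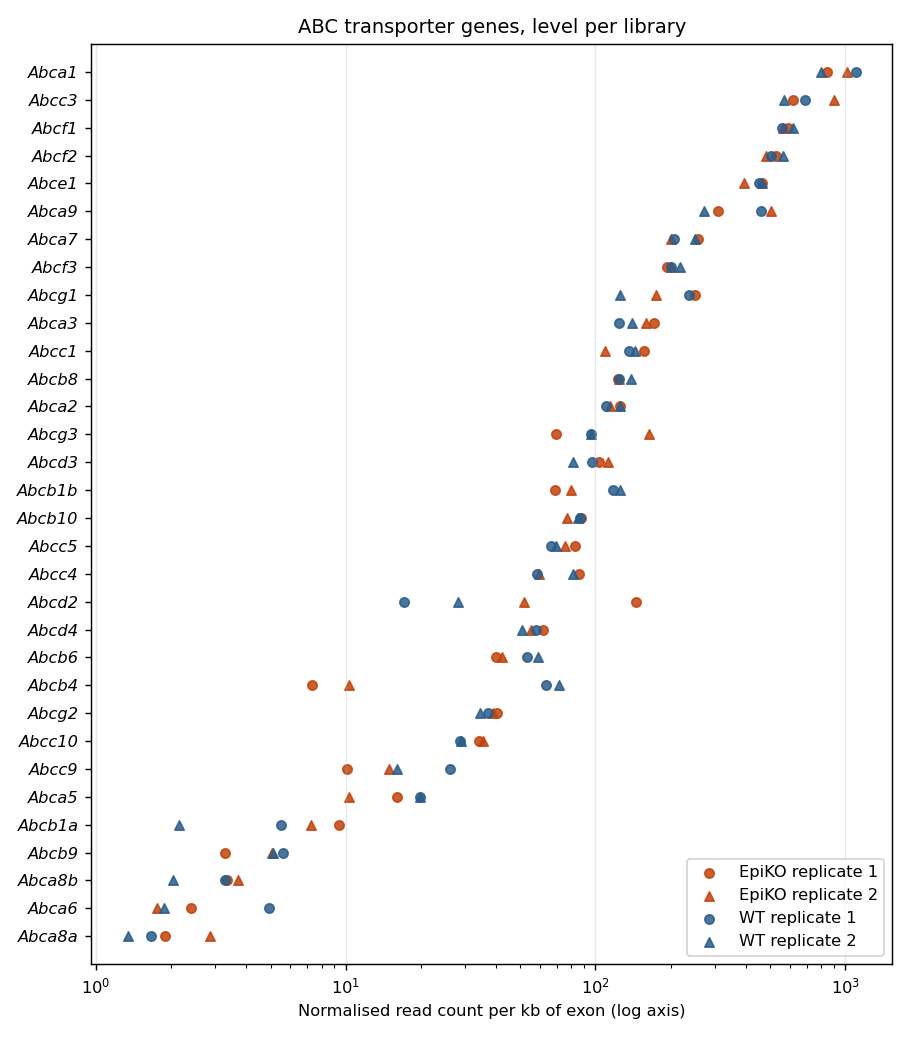
Normalised read count per kb of exon (log axis) of 32 ABC transporter genes in each library, ordered by the mean of all libraries, with EpiKO in orange and WT in blue. The symbols of most genes lie close together. Abcb4 shows a wide gap between the groups, while Abcd2 is higher in EpiKO but also varies widely within EpiKO.

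In the A subfamily, which moves lipids, none of 9 members was called. Abca1, the cholesterol and phospholipid exporter that loads apolipoprotein A-I, had 8761 and 10495 in EpiKO and 11454 and 8310 in WT, with a log2 fold change of -0.025 (95% interval -0.53 to 0.48). Its WT libraries enclosed both EpiKO libraries. Abca7, a relative of Abca1 linked to phospholipid export and phagocytosis, had 1731 and 1359.95 in EpiKO and 1391 and 1698 in WT, a log2 fold change of -0.0023 (95% interval -0.44 to 0.43). Abca3, which fills the lamellar bodies of lung epithelium with surfactant lipid, was at 1612 and 1498 in EpiKO and 1168 and 1308 in WT. Both EpiKO libraries were higher, and the log2 fold change was 0.33 (SE 0.115) at an adjusted p of 0.268 by limma. Its exons overlap those of a gene on the other strand.

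Abca5, a lipid transporter of lysosomes, had 184 and 118 in EpiKO and 226 and 226 in WT, or -0.61 in log2 terms (SE 0.254) at an adjusted p of 0.342 by limma. Abca2, from late endosomes and lysosomes, was nearly level at a log2 fold change of 0.035. Abca9, abundant in these cells, varied within both groups, at 2493 and 4042 in EpiKO and 3707 and 2191 in WT. Its neighbours on chromosome 11 were rare, with Abca6 between 9.45 and 26.7 over the 4 libraries. Abca8a had 11.8 and 18.0 in EpiKO and 10.4 and 8.41 in WT (log2 fold change 0.59, SE 0.511). Abca8b had 24.8 and 27.4 in EpiKO and 24.3 and 15.1 in WT (log2 fold change 0.42, SE 0.424). Abca8a and Abca8b share 105 words of 50 bases, which is 1.64% of those of Abca8a, so reads may be split between them. Abca6 and Abca8a passed the cut on low values narrowly.

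Of the 8 tested members of the B subfamily Abcb4 alone was called. The log2 fold change was negative for 7 of them, beside 6274 of the 12463 tested genes, and several of the 7 lay near 0. Abcb6, a porphyrin transporter of mitochondria and endolysosomes, had 212 and 225 in EpiKO and 283 and 312 in WT. Both EpiKO libraries were lower, and the log2 fold change was -0.44 (SE 0.149) at an adjusted p of 0.254 by limma. Its exons overlap those of another annotated gene on the same strand, so its count is uncertain. Abcb8 and Abcb10, of the mitochondrial inner membrane, were close to level, with log2 fold changes of -0.078 and -0.061. Abcb9, a lysosomal peptide transporter, was low in every library, between 18.3 and 31.3, with a log2 fold change of -0.38.

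The TAP genes are ABC family members under other symbols and lie outside the rule. Tap2, a subunit of the transporter that carries peptides to MHC class I, had 1382 and 1505 in EpiKO and 1346 and 1209.6 in WT. Its log2 fold change was 0.18 (SE 0.116), and that of Tap1, the other subunit, was -0.042 (SE 0.157). The peptide-loading list of 15 tested genes to which they belong had none called and a median log2 fold change of 0.065. Its smallest p-value was that of Nlrc5, the transactivator of MHC class I genes, at 506 and 501 in EpiKO and 380.2 and 409 in WT (log2 fold change 0.35, SE 0.120). Erap1, a peptide-trimming protease, had 2295 and 2043 in EpiKO and 1795 and 1919 in WT (log2 fold change 0.22, SE 0.116).

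None of the 6 tested C subfamily members was called. Abcc1, which exports leukotriene C4 and glutathione conjugates, had 2355 and 1644 in EpiKO and 2048 and 2164 in WT, a log2 fold change of -0.097 (95% interval -0.59 to 0.39). Abcc4, an exporter of prostaglandins and cyclic nucleotides, had 550.1 and 378 in EpiKO and 371 and 520.3 in WT. The groups overlapped for both genes. Abcc5, an exporter of cyclic nucleotides, had 882 and 807 in EpiKO and 711 and 743 in WT, a log2 fold change of 0.22 (SE 0.111). Abcc10, another exporter of conjugates, had 234 and 244 in EpiKO and 197 and 199 in WT (log2 fold change 0.27, SE 0.151). Abcc3 overlapped between the groups, at 3506 and 5146 in EpiKO and 3937 and 3249.7 in WT (log2 fold change 0.25, SE 0.221). Abcc9, the sulfonylurea receptor subunit of a potassium channel, had 85.05 and 125 in EpiKO and 219 and 134 in WT, or -0.73 in log2 terms (SE 0.332) at an adjusted p of 0.384 by limma. Without WT replicate 1, the library with the most keratinocyte transcripts, it was -0.38, and without EpiKO replicate 1 it was -0.46. Abcc9 is also known from pericytes. Of the 10 endothelial and pericyte markers, 3 were higher and 3 lower in both EpiKO libraries than in either WT library. Among the lower was Cspg4, at 691 and 635 in EpiKO and 3818 and 6398 in WT, while Rgs5 and Kcnj8 did not reach the cut on low values. The part of pericytes in the Abcc9 difference was not tested.

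Abcd2 had the highest log2 fold change of the family, 1.97 (SE 0.541, 95% interval 0.57 to 3.36). The gene encodes a peroxisomal importer of very long-chain fatty acyl-CoA. It had 860 and 307 in EpiKO libraries and 102 and 167 in WT libraries. Both EpiKO libraries were higher, yet in normalised read counts they differed from each other by more than the WT libraries differed from the nearer of them. On the log2 scale this held for WT replicate 2 but not for WT replicate 1. The adjusted p was 0.188 by limma and 0.178 by edgeR, and 0.000949 by DESeq2. Without EpiKO replicate 1 the log2 fold change was 1.23, and without EpiKO replicate 2 it was 2.71. Abcd3, the peroxisomal importer of branched-chain and other acyl-CoA, had 683 and 743 in EpiKO and 637 and 535 in WT (log2 fold change 0.29, SE 0.137). Abcd4, which serves cobalamin export from lysosomes, had a log2 fold change of 0.10 (SE 0.138).

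None of the 4 ribosome-associated members was called. Abce1, which splits ribosomes after termination, had 2798 and 2370.2 in EpiKO and 2709.9 and 2785 in WT, a log2 fold change of -0.093 (95% interval -0.41 to 0.23). Abcf1, which takes part in translation initiation, had 2594 and 2491 in EpiKO and 2455 and 2730.2 in WT (log2 fold change -0.026, SE 0.112). Abcf2 had 1353 and 1239 in EpiKO and 1302 and 1447 in WT (log2 fold change -0.084, SE 0.116). Abcf3 had a log2 fold change of -0.087. All 4 intervals included 0, with standard errors between 0.110 and 0.125.

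In the G subfamily, Abcg1, which moves cholesterol towards high-density lipoprotein, had 1830.1 and 1275 in EpiKO and 1726 and 918 in WT. The groups overlapped, and the log2 fold change of 0.28 had a 95% interval of -0.62 to 1.18. The ratio of Abca1 to Abcg1 per kb was 3.37 and 5.80 in EpiKO and 4.67 and 6.38 in WT, which also overlapped. Abcg2, a urate, porphyrin and drug exporter that marks side-population cells, was steady at 329 and 317 in EpiKO and 303 and 281 in WT (log2 fold change 0.15, SE 0.136). Abcg3, a rodent gene, had 248 and 579 in EpiKO and 342 and 341 in WT, so the EpiKO libraries stood on either side of WT.

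Of the 50 genes, 16 did not reach the cut, and 9 of these had no read in any library. The silent ones were Abca15, Abca16, Abca17, Abcb5, Abcb11, the bile salt exporter of the liver, Abcc2, Abcc6, and the sterol pair Abcg5 and Abcg8. In each, a count of 0 in every library allows up to 3 reads per library. The other 7 had between 2 and 17 reads over all libraries. Abca13, the highest, had 5 and 2 reads in EpiKO libraries and 0 and 10 in WT libraries. Abca12, a lipid transporter of the epidermis, had 6 reads in all, every one in WT replicate 1, the library with the most keratinocyte transcripts.

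The partner genes of these transporters were described in 9 lists, each by its counts beside the 0.947% called over all tested genes. Of 28 tested genes of LXR signalling and cholesterol handling, 1 was called higher and 1 lower. Pltp, the phospholipid transfer protein that feeds lipoproteins, had 3556 and 4688 in EpiKO and 12516 and 14545 in WT, a log2 fold change of -1.72 (SE 0.177) with an adjusted p of 0.0381 by limma. Scd2, a fatty acid desaturase, had 7302 and 6608 in EpiKO and 3534 and 3029 in WT, a log2 fold change of 1.09 (SE 0.132) with an adjusted p of 0.0471 by limma. Nr1h3, which encodes LXR alpha, the nuclear receptor that switches on Abca1 and Abcg1, had 191 and 198 in EpiKO and 427 and 346 in WT. Its log2 fold change was -0.98 (SE 0.166) with an adjusted p of 0.0754 by limma. Ch25h, which makes an oxysterol, had 2945 and 2454 in EpiKO and 1389.7 and 1544 in WT (log2 fold change 0.88, SE 0.137), at an adjusted p of 0.0652 by limma. The list had a median log2 fold change of 0.087.

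Among 20 tested genes of eicosanoid synthesis and transport, whose products Abcc1 and Abcc4 carry, 2 were called higher and none lower. The median log2 fold change was 0.24, with 12 positive and 8 negative. Tbxas1, thromboxane synthase, had 3747 and 3496 in EpiKO and 1750.2 and 1605.5 in WT, a log2 fold change of 1.11 (SE 0.111) with an adjusted p of 0.0371 by limma. The other was the prostaglandin importer gene Slco2a1, at 653 and 510.3 in EpiKO and 55.6 and 30.3 in WT (log2 fold change 3.78, SE 0.338). Ltc4s, which makes the leukotriene C4 that Abcc1 exports, had 586 and 794 in EpiKO and 284 and 230.3 in WT, but did not pass, with an adjusted p of 0.0567 by limma. In the lower direction Slco4a1 had 30.1 and 22.7 in EpiKO and 109 and 99.2 in WT (log2 fold change -1.95, SE 0.297). It did not pass either, with an adjusted p of 0.0616 by limma.

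Flippases and scramblases, which move phospholipids between the leaflets as Abcb4 does, had none of 18 tested members called, and a median log2 fold change of 0.18. The scramblase Ano6 had 3479 and 3441 in EpiKO and 4167 and 4721 in WT (log2 fold change -0.36, SE 0.117). The flippase Atp10a had 211 and 133 in EpiKO and 62.6 and 100.03 in WT (log2 fold change 1.07, SE 0.351). Atp11b, another flippase, had 4019.8 and 1724 in EpiKO and 1226 and 1249 in WT (log2 fold change 1.09, SE 0.401). Each pair of groups is apart, with adjusted p-values by limma of 0.240, 0.240 and 0.296. These genes had the smallest p-values of the list. The groups did not overlap for 33.3% of the 18, beside 47.1% of all tested genes.

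Of 6 tested nuclear receptors and coactivators none was called. Ppargc1b, a coactivator of mitochondrial genes, had 112 and 97.3 in EpiKO and 239 and 274 in WT (log2 fold change -1.28, SE 0.189), with an adjusted p of 0.0602 by limma. Ahr, the receptor for aryl hydrocarbons, had 1820.4 and 2088 in EpiKO and 1880.01 and 1295 in WT (log2 fold change 0.32, SE 0.205). Nr3c1, the glucocorticoid receptor, had 1862 and 1867 in EpiKO and 1691 and 1751 in WT (log2 fold change 0.12, SE 0.0999).

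Among 22 tested glutathione and conjugation genes none was called (median -0.028). Gstt1, a glutathione transferase, had 19.4 and 2.84 in EpiKO and 132 and 249.7 in WT (log2 fold change -4.37, SE 0.871), with an adjusted p of 0.109 by limma. Its relative Gstt2 had 98.0 and 78.4 in EpiKO and 162 and 166 in WT (log2 fold change -0.90, SE 0.215). The microsomal transferase Mgst1 had 928 and 359 in EpiKO and 195 and 164 in WT (log2 fold change 1.69, SE 0.460).

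None of 24 tested heme and iron-sulfur genes was called (median -0.049). Slc25a37, the mitochondrial iron importer, had 887 and 764 in EpiKO and 516 and 616 in WT (log2 fold change 0.55, SE 0.147). Iba57, an iron-sulfur assembly factor, had 146 and 109.6 in EpiKO and 209 and 212 in WT (log2 fold change -0.73, SE 0.212). Flvcr1, listed as Mfsd7b, was the other of the leading genes, at 359.6 and 417 in EpiKO and 637 and 493 in WT (log2 fold change -0.53, SE 0.175).

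None of 27 tested peroxisome genes was called (median -0.0020). The assembly gene Pex16 had 200.2 and 229.7 in EpiKO and 315 and 312 in WT (log2 fold change -0.55, SE 0.152). Pex13, part of the import machinery, had 419 and 486 in EpiKO and 631 and 564 in WT (log2 fold change -0.40, SE 0.138). Scp2, a lipid transfer protein and thiolase, had 1820.4 and 1766 in EpiKO and 2244 and 2033 in WT (log2 fold change -0.25, SE 0.109). Of 15 tested ribosome recycling genes none was called either (median 0.0053). The initiation factor gene Eif5 had 4013 and 3876 in EpiKO and 6835 and 5048 in WT (log2 fold change -0.57, SE 0.172). Gspt2, a release factor, had 18.3 and 15.1 in EpiKO and 5.80 and 7.57 in WT (log2 fold change 1.21, SE 0.508). Eif6, which keeps ribosomal subunits apart, had 1664 and 1502 in EpiKO and 1871 and 1799 in WT (log2 fold change -0.21, SE 0.110).

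**Figure D5:**
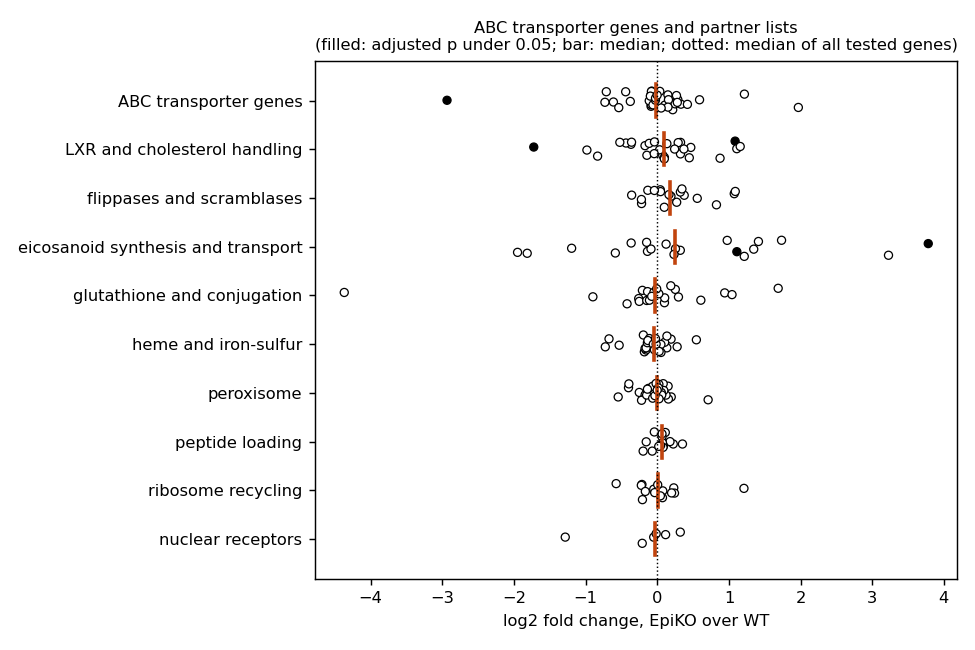
log2 fold change (EpiKO over WT) of each tested gene of the ABC transporter family and of the 9 partner lists, with bars at the medians and filled points for an adjusted p under 0.05. In the family Abcb4 alone is filled, at -2.93, beside Pltp and Scd2 in the cholesterol list and Tbxas1 and Slco2a1 in the eicosanoid list.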

How the data were processed

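The values deposited by the authors are a normalised signal for each gene. Dividing each library by its smallest step gave whole reads for 100% of the values (tolerance 1e-06 reads), so they are counts scaled by a library's factor. The submitters' processing notes name bcl2fastq 2.17, STAR 2.5.2b, mm10, featureCounts 1.5.0-p3 and also DESeq2. No source used here gives the annotation, the strand setting or the handling of multiply aligned reads.

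Values were tested as log2(value + 1) with limma 3.58.1 in R 4.3.3 (trend, robust), EpiKO against WT, two-sided. The cut on low values was 10 in 2 or more libraries, and p-values were adjusted over all 12463 by the Benjamini-Hochberg method. Fold changes on this scale understate the change of low genes. On the recovered reads edgeR 4.0.16 and DESeq2 1.42.0 were alternatives. The code was tested on simulated data. The members, lists and named genes were chosen with earlier results of these data known. Named genes were Abcb4, called members, those with the smallest p, the most abundant per kb, close paralogues, the genes near Abcb4 and the leading genes of each list. The values of 2 members, which stay in all counts and medians, are not reported here. Other members, Nr1h3 and Tap1 were named after their values were seen. Exon lengths and coordinates are from GENCODE M21, in which all 34 members were found. Replicate numbers follow sample order and pair nothing. Reads are not independent molecules, so the floor of 3 reads covers counting error only. Libraries of 1 group differed far beyond sampling noise.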

Additional observations from a re-analysis of the deposited data

How the results depend on the processing

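Abcb4 kept its negative log2 fold change under all 13 alternative fits, but its call rested on the trend and on every library. Without the trend the adjusted p was 0.0596 by limma (log2 fold change -2.93), 0 members were called, and 31 genes were called over all tested genes. With 1 library left out the log2 fold change of Abcb4 was between -3.17 and -2.70, the count of called members was 0 throughout, that over all genes was between 0 and 4, and the median of the family was between -0.058 and 0.030. The lone library of a group was then assumed to vary like the other group. DESeq2 called 854 genes, 6.85% of all tested, and 3 members (Abcb4, Abcb1b and Abcd2), and an adjusted p threshold of 0.1 called 428 genes and 2 members (Abcb4 and Abcb1b). Of the members reported here 14, none of them called, changed sign when 1 library was left out, some for either of 2 libraries. Their log2 fold changes then ranged as follows: Abca7 -0.18 to 0.17, Abcc3 -0.029 to 0.52, Abca9 -0.22 to 0.54, Abca6 -1.20 to 0.12, Abcc4 -0.22 to 0.32, Abcc1 -0.36 to 0.16, Abcg1 -0.18 to 0.73, Abcf1 -0.10 to 0.050, Abca2 -0.058 to 0.13, Abca1 -0.26 to 0.21, Abcb8 -0.16 to 6.8e-05, Abcg3 -0.46 to 0.76, Abce1 -0.21 to 0.026, Abcb10 -0.15 to 0.033. Abca7 was 0.00060 by DESeq2. The cause of these changes was not tested. No paired analysis was possible because the labels give no replicate numbers shared between the groups.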
